A study of Mus musculus with 8 samples.

Results

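Transcripts of the E2F transcription factors and of the retinoblastoma proteins that restrain them were followed through HER2-driven transformation of mouse astrocytes. The rows of the count table were chosen by gene symbol: 7 E2F genes, E2f1, E2f2, E2f3, E2f4, E2f5, E2f7 and E2f8, and the 3 pocket protein genes Rb1, Rbl1 and Rbl2. E2f6 was not among the chosen genes and is counted with the partners. All 10 were found among the 13607 genes of the table, and all 10 passed the filter on low counts. The study asked what changes when cultured astrocytes become glioma-like cells, and what changes when Yap and Taz are targeted during that process. It sequenced polyA RNA from 8 libraries, with 2 libraries, A and B, in each of 4 groups. All groups share the C57BL/6J background and the genotype Yap f/f; Taz f/f, in which both genes carry alleles that Cre recombinase can delete (Wwtr1 is the gene symbol of Taz). Lentiviruses supplied an inducible HER2CA, an activated form of the receptor HER2, with rtTA, which turns it on in doxycycline, and CreERT2, a Cre that needs 4-hydroxytamoxifen (4OH-TAM). Gliomaspheres were HER2CA cells in suspension culture with doxycycline, labelled P1 and collected 3 weeks after the start. The 4OH-TAM-labelled libraries came from adherent HER2CA astrocytes at day 15 in doxycycline and 1 µM 4OH-TAM. HER2CA day 15 astrocytes had doxycycline and no 4OH-TAM. Controls were untransformed astrocytes without doxycycline, and the sources used here do not say whether they carried the constructs. HER2CA day 15 and gliomaspheres are labelled DMSO, the usual vehicle, while the treatment protocol speaks of untreated cells. The age of the animals, the promoter that drives each construct and the number of cultures behind A and B are not given either. Each p-value therefore sets a difference against the spread between libraries of the same group, which may be technical. In the main fit that spread was estimated over all 4 groups together.

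E2F proteins bind the promoters of genes needed to enter and complete S phase, as heterodimers with DP proteins. E2F1, E2F2 and E2F3 are classed as activators, E2F4 and E2F5 mostly act with pocket proteins as repressors in resting cells, and E2F7 and E2F8 are atypical repressors that bind DNA without a DP partner and curb E2F targets late in S phase. The pocket proteins RB (Rb1), p107 (Rbl1) and p130 (Rbl2) hold E2F in check until cyclin-dependent kinases phosphorylate them, and p130 is the form known from quiescent cells, while p107 is known from cycling cells. With the MuvB proteins, p130 and E2F4 form the DREAM complex, which keeps cell cycle genes off, and the same MuvB core joins B-MYB and FOXM1 to turn on mitotic genes. In astrocytes and glioma, RB pathway lesions are among the textbook routes to unchecked division.

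Library totals ran from 15517708 to 28231426 counts. Gliomaspheres B stood apart, with 36.1% of its counts on the ribosomal transcript Rn45s against at most 2.92% in the other 7 libraries, and results on gliomaspheres were also computed without it. Yap1 was at 130.6 and 136.4 CPM (counts scaled to library size) in gliomaspheres, 107 and 103 CPM in the 4OH-TAM-labelled libraries, 101 and 103 CPM in HER2CA day 15 and 144 and 136 CPM in control astrocytes. Under the 4OH-TAM label Yap1 was not lower than in HER2CA day 15 (log2 fold change 0.043, adjusted p = 0.569), although Wwtr1 averaged 122 CPM there against 202 CPM in HER2CA day 15, and groups are called by their labels. All 8 astrocyte markers looked for were in the table, with a summed level of 10110 to 10460 CPM in gliomaspheres, 11080 to 11550 CPM in the 4OH-TAM-labelled libraries, 2538 to 2612 CPM in HER2CA day 15 and 5491 to 6404 CPM in control astrocytes. Between gliomaspheres and the 4OH-TAM-labelled libraries 3 of the 8 were higher, 3 lower and 2 did not pass. Markers of other cells moved between groups too. The 11 measured microglia and macrophage markers of 12 summed to 1086 to 1129 CPM in the 4OH-TAM-labelled libraries and to 113.6 to 232 CPM in the other 6. Lyz2 made up most of the sum in the 4OH-TAM-labelled libraries, at 729 and 713 CPM. Of the 11, 10 were higher and 1 lower there than in HER2CA day 15. Against controls 9 were higher, 0 lower and 2 did not pass. Gliomaspheres had 1 higher and 10 lower than the 4OH-TAM-labelled libraries. The 8 measured oligodendrocyte lineage markers of 9 summed to 2983 to 3294 CPM in gliomaspheres, 873 to 917 CPM in the 4OH-TAM-labelled libraries, 110 to 119 CPM in HER2CA day 15 and 468 to 505 CPM in control astrocytes. Olig1 and Olig2 made up most of the gap between gliomaspheres and the 4OH-TAM-labelled libraries, where 3 of the 8 were higher, 2 lower and 3 did not pass (median 0.064). Fibroblast and mural markers, 6 measured of 7, summed to 32.6 to 37.7 CPM in gliomaspheres and to 159 to 266 CPM elsewhere. Acta2 made up most of that sum in HER2CA day 15 and controls. In the 4OH-TAM-labelled libraries Col1a1, at 83.45 and 65.5 CPM, was above Acta2, at 64.8 and 52.3 CPM. Of the 6, 5 were higher and 1 lower in the 4OH-TAM-labelled libraries than in HER2CA day 15 (median log2 fold change 2.44) and than in controls (median 1.53). The 3 measured neuron markers of 6 summed to 11.1 to 11.5 CPM in gliomaspheres and to 32.95 to 60.5 CPM elsewhere, a sum set mostly by Stmn2; 2 of the 3 were higher and 1 lower in gliomaspheres than in controls and than in HER2CA day 15. All 3 were higher in the 4OH-TAM-labelled libraries than in HER2CA day 15. The 1 measured endothelial marker of 4 was at 31.5 to 37.6 CPM in gliomaspheres, 22.8 to 26.0 CPM in the 4OH-TAM-labelled libraries, 2.79 to 2.98 CPM in HER2CA day 15 and 11.6 to 12.1 CPM in control astrocytes. Other listed markers were not analysed here. Their part in the results on E2F and pocket protein genes was not tested. Levels are scaled by TMM factors, under which the all-gene median of the log2 fold change lay between −0.03 and 0.02 in the 6 comparisons. Upper-quartile factors moved that median to 0.22 between the 4OH-TAM-labelled libraries and HER2CA day 15 and to −0.17 between HER2CA day 15 and controls. With no scaling factors it was −0.33 for gliomaspheres against controls, −0.30 against HER2CA day 15 and −0.38 against the 4OH-TAM-labelled libraries.

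The activators differed sharply in level and in pattern. E2f1 (chromosome 2, 154559407 to 154569892 on the GRCm38 build, like all positions here) had 17.35 and 21.1 CPM in gliomaspheres, 18.1 and 14.8 CPM in the 4OH-TAM-labelled libraries, 10.3 and 10.04 CPM in HER2CA day 15 and 17.7 and 16.1 CPM in control astrocytes. HER2CA day 15 lay below every other library, and the other 3 groups overlapped. E2f1 was higher in gliomaspheres than in HER2CA day 15 by a log2 fold change of 0.90 (SE 0.136; adjusted p = 2.07e-05 by edgeR's quasi-likelihood test with Benjamini-Hochberg adjustment over all genes, as for every adjusted p here) and higher in the 4OH-TAM-labelled libraries than in HER2CA day 15 by 0.69 (SE 0.13, adjusted p = 0.00017). Against controls it fell by 0.73 in HER2CA day 15 (SE 0.13, adjusted p = 0.000117). The 3 comparisons among gliomaspheres, the 4OH-TAM-labelled libraries and controls did not pass (adjusted p = 0.19 to 0.808). RNA from bulk culture cannot tell fewer cells that express a gene from less RNA per cell, here or in any result that follows.

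E2f2 (chromosome 4, 136172394 to 136196057) was nearly silent outside gliomaspheres. It reached 6.41 and 6.27 CPM in gliomaspheres, 1.53 and 1.19 CPM in the 4OH-TAM-labelled libraries, 0.275 and 0.173 CPM in HER2CA day 15 (6 and 5 counts) and 0.461 and 0.453 CPM in control astrocytes (12 and 11 counts). The 4 groups did not overlap. In gliomaspheres E2f2 was higher than in controls by a log2 fold change of 3.78 (SE 0.251, adjusted p = 5.3e-09), than in HER2CA day 15 by 4.84 (SE 0.288, adjusted p = 5.32e-10) and than in the 4OH-TAM-labelled libraries by 2.22 (SE 0.203, adjusted p = 2.28e-07). The 4OH-TAM-labelled libraries were above HER2CA day 15 by 2.62 (SE 0.366, adjusted p = 9.21e-06) and above controls by 1.56 (SE 0.311, adjusted p = 0.000562). HER2CA day 15 had a log2 fold change of −1.06 against controls, just short of the threshold (SE 0.467, adjusted p = 0.0516), and this one passed with upper-quartile factors (0.0284) and with Rn45s and Lars2 left out (0.0492). Of the activators E2f2 passed in the most comparisons, 5 of 6. It reached 1 CPM, before scaling, only in gliomaspheres and the 4OH-TAM-labelled libraries. It thus entered the table through groups where it was high, and its calls are read with that limit.

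E2f3 (chromosome 13, 29906575 to 29986063) was the most abundant activator per kilobase of exon in all 8 libraries and passed in the 3 comparisons with gliomaspheres. It was at 47.5 and 51.7 CPM in gliomaspheres, 32.7 and 32.5 CPM in the 4OH-TAM-labelled libraries, 34.5 and 34.5 CPM in HER2CA day 15 and 33.9 and 30.7 CPM in control astrocytes. Both gliomasphere libraries were above all 6 others, which lay between 30.7 and 34.5 CPM. The gliomasphere level was higher than in controls by a log2 fold change of 0.61 (SE 0.0849, adjusted p = 1.66e-05), than in HER2CA day 15 by 0.52 (SE 0.0845, adjusted p = 4.39e-05) and than in the 4OH-TAM-labelled libraries by 0.60 (SE 0.0846, adjusted p = 2.27e-05). The other 3 comparisons did not pass (adjusted p = 0.332 to 0.907). Counts per gene cannot separate the long and short E2F3 forms, which start from different promoters.

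**Figure D1:**
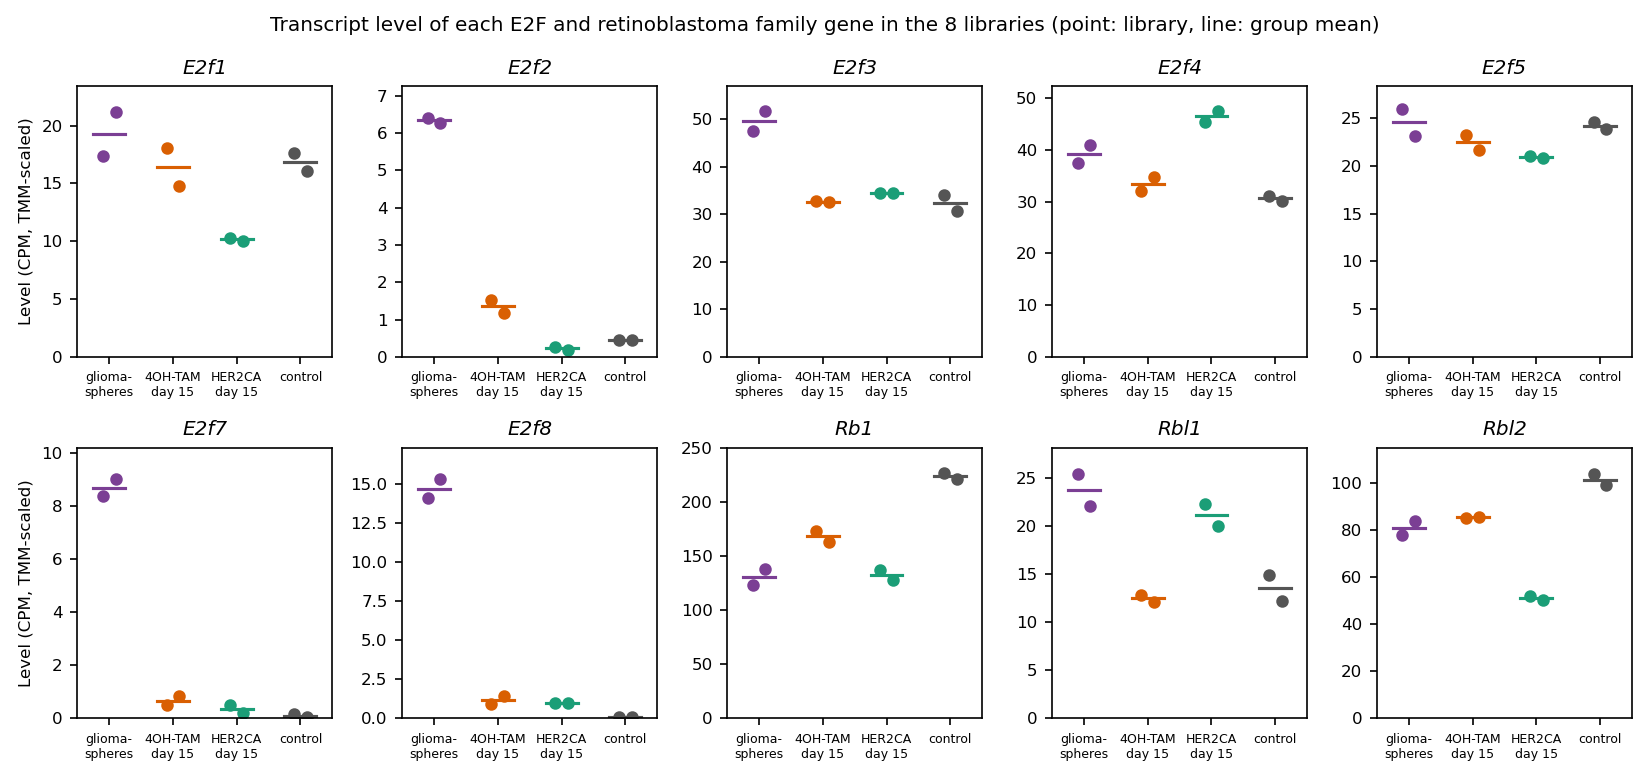
Level of each of the 10 genes in the 8 libraries, in CPM with TMM-scaled library sizes; each point is a library and each line a group mean, with gliomaspheres at the left and controls at the right of each panel. E2f2, E2f7 and E2f8 stand high in gliomaspheres, E2f1 and Rbl2 are lowest in HER2CA day 15, and Rb1 is highest in controls, at 227 and 222 CPM.

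Start regions of these genes are shown because E2F factors are textbook targets of E2F themselves, and a link between the letters and the levels was not tested. RefSeq windows on GRCm38.p6, from 250 bases before to 50 bases after a start, were to hand for 7 of the 10 genes, 9 windows in all. They were searched on both strands for the E2F letters TTTCCCGC, TTTCGCGC, TTTGCCGC and TTTGGCGC, and for the CHR element (TTTGAA or TTTAAA), the site through which MuvB complexes bind. The windows of E2f2 and E2f3 below run 5′ to 3′ along the gene. A run of 8 capitals marks E2F letters and a run of 6 marks a CHR; matches on the opposite strand appear as their reverse complement. The E2f2 window is chr4:136172024-136172323 (plus strand), and its start lies 120 bases upstream of the GENCODE gene start.
E2f2: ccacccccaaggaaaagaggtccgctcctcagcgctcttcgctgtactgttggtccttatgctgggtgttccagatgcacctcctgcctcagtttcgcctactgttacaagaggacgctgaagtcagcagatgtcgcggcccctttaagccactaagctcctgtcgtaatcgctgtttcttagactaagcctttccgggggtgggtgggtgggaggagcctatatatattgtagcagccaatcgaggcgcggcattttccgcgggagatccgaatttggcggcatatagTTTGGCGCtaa
The E2f3 window is chr13:29986014-29986313 (minus strand), at the first of its 2 starts.
E2f3: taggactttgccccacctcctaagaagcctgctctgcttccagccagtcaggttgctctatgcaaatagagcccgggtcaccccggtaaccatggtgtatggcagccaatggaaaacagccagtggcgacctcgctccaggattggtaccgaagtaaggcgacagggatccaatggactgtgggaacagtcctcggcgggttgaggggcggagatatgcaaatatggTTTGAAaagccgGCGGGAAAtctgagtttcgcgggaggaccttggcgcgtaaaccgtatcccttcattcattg
The E2f2 window holds TTTGGCGC from position 40 after the start. The E2f3 window holds the CHR letters TTTGAA from 23 bases before the start and the E2F letters TTTCCCGC, on the opposite strand, from 11 bases before it, with no overlap between them. Of the 9 windows, 4 held E2F letters, those of E2f2, E2f3, E2f7 and Rbl1, against 2.26% of 32851 windows of the same length (744 windows). CHR letters stood in 4 of the 9, at E2f3, E2f8, Rbl2 and the second start of E2f2, against 27.6% of all windows. The windows of E2f1 and the second E2f3 start held neither, but these RefSeq starts lie 466 and 1672 bases downstream of the GENCODE gene starts, so the region before the GENCODE start of E2f1 was not searched. A match in letters is a description and does not show binding.

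Among the chosen E2F genes, which leave out E2f6, E2f4 and E2f5 took the largest shares per kilobase of exon. The E2f4 level was highest in HER2CA day 15. E2f4 (chromosome 8, 105297663 to 105305370) was at 37.55 and 41.1 CPM in gliomaspheres, 32.1 and 34.85 CPM in the 4OH-TAM-labelled libraries, 45.4 and 47.6 CPM in HER2CA day 15 and 31.2 and 30.15 CPM in control astrocytes. No groups overlapped, and HER2CA day 15 was the highest. HER2CA day 15 was above controls by a log2 fold change of 0.60 (SE 0.083, adjusted p = 8.86e-06), and gliomaspheres were above controls by 0.35 (SE 0.0869, adjusted p = 0.0026). The 4OH-TAM-labelled libraries were below HER2CA day 15 (log2 fold change −0.48, SE 0.0823, adjusted p = 7.71e-05) and had a value of 0.13 against controls (adjusted p = 0.211). Gliomaspheres were below HER2CA day 15 (log2 fold change −0.25, SE 0.0849, adjusted p = 0.0131), a call lost with upper-quartile factors (0.146), with no scaling factors (0.116), in a fit of only these 2 groups (0.0657), without gliomaspheres A (0.129) and without HER2CA day 15 B (0.0776). Gliomaspheres were above the 4OH-TAM-labelled libraries by 0.22 (SE 0.0862, adjusted p = 0.0361), but that call was lost under 8 of 17 other settings, without gliomaspheres B (0.198) and without 4OH-TAM A (0.231) among them, and the value turned to −0.18 with no scaling factors.

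E2f5 (chromosome 3, 14578641 to 14606309) passed in 1 of 6 comparisons. Its level was 26.0 and 23.2 CPM in gliomaspheres, 23.3 and 21.7 CPM in the 4OH-TAM-labelled libraries, 21.1 and 20.8 CPM in HER2CA day 15 and 24.6 and 23.85 CPM in control astrocytes. HER2CA day 15 was the lowest group, while gliomaspheres overlapped both controls and the 4OH-TAM-labelled libraries. Gliomaspheres against HER2CA day 15 was the one that passed (log2 fold change 0.25, SE 0.0971, adjusted p = 0.0308), and it was lost with DESeq2 (0.0537), without gliomaspheres A (0.313) and without either HER2CA day 15 library (0.0699 without A, 0.0961 without B), and turned to −0.020 with no scaling factors. HER2CA day 15 had a log2 fold change of −0.21 against controls that did not pass (SE 0.0932, adjusted p = 0.0528) but passed under 7 other settings (0.00229 to 0.0438), those without gliomaspheres A and without gliomaspheres B among them.

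The atypical repressors E2f7 and E2f8 showed the widest range of the family. E2f7 (chromosome 10, 110745439 to 110787384) was at 8.38 and 9.00 CPM in gliomaspheres (200 and 89 counts), 0.498 and 0.842 CPM in the 4OH-TAM-labelled libraries (13 and 22 counts), 0.504 and 0.207 CPM in HER2CA day 15 (11 and 6 counts) and 0.154 and 0.0412 CPM in control astrocytes (4 and 1 counts). Gliomaspheres stood far above the rest, the 2 day 15 groups overlapped, and controls were the lowest. Every gene of the table reaches 1 CPM, before scaling, in at least 2 libraries. E2f7 did so in gliomaspheres only, E2f2 also in the 4OH-TAM-labelled libraries and E2f8 in all groups but controls. A gene that enters through the group where it is high had to differ, and the 3 genes are read with that limit. Gliomaspheres exceeded controls by a log2 fold change of 6.37 (SE 0.379, adjusted p = 1.62e-09), HER2CA day 15 by 4.66 (SE 0.305, adjusted p = 1.57e-09) and the 4OH-TAM-labelled libraries by 3.68 (SE 0.266, adjusted p = 1.81e-08). As a ratio of summed counts, 289 against 5, the first of these was 86.2-fold after scaling, with an exact 95% interval of 36.5 to 268 that covers counting error only. The fitted value against controls moved to 7.53 without control A and to 5.76 without control B, and that against HER2CA day 15 to 5.35 without HER2CA day 15 A. The 4OH-TAM-labelled libraries were above controls by 2.69 (SE 0.614, adjusted p = 0.00162; 3.85 without control A and 2.09 without control B). HER2CA day 15 was above controls by 1.71 (SE 0.722, adjusted p = 0.0434), on 17 against 5 counts. That call was lost without HER2CA day 15 A (1.02, adjusted p = 0.309), without control B (1.10, adjusted p = 0.234), and also with upper-quartile factors (0.0637) or unscaled (0.0582), and its value was 2.86 without control A. Between the 4OH-TAM-labelled libraries and HER2CA day 15 the log2 fold change was 0.98 and did not pass (SE 0.465, adjusted p = 0.0638), although it did under 5 other settings, with 1.67 (adjusted p = 0.0211) without HER2CA day 15 A.

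E2f8 (chromosome 7, 48866429 to 48881596) was likewise highest in gliomaspheres and lowest in controls. It was at 14.1 and 15.3 CPM in gliomaspheres (337 and 151 counts), 0.919 and 1.42 CPM in the 4OH-TAM-labelled libraries (24 and 37 counts), 1.01 and 1.00 CPM in HER2CA day 15 (22 and 29 counts) and 0.115 and 0.0824 CPM in control astrocytes (3 and 2 counts). The 2 day 15 groups overlapped, with gliomaspheres above and controls below both. Gliomaspheres exceeded controls by a log2 fold change of 7.12 (SE 0.294, adjusted p = 3.05e-11), HER2CA day 15 by 3.86 (SE 0.197, adjusted p = 8.92e-11) and the 4OH-TAM-labelled libraries by 3.64 (SE 0.191, adjusted p = 5.5e-10). The ratio of summed counts to controls was 146-fold, on 488 against 5 counts, with an exact 95% interval of 62 to 450 for counting error only. E2f8 was also above controls in the 4OH-TAM-labelled libraries (3.49, SE 0.461, adjusted p = 1.41e-05) and in HER2CA day 15 (3.27, SE 0.479, adjusted p = 1.67e-05), and both calls passed under all 17 other settings. The day 15 groups were not told apart (0.22, SE 0.276, adjusted p = 0.478). The exons of E2f8 share 610 bases (11.2%) with Gm2788 on the opposite strand. The sources used here do not name a strand setting for the counting, so how reads from these bases were counted is not known.

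The start regions of this pair differ in letters. The E2f7 window is chr10:110745189-110745488 (plus strand), and the E2F letters TTTCCCGC stand on its opposite strand from 198 bases before the start.
E2f7: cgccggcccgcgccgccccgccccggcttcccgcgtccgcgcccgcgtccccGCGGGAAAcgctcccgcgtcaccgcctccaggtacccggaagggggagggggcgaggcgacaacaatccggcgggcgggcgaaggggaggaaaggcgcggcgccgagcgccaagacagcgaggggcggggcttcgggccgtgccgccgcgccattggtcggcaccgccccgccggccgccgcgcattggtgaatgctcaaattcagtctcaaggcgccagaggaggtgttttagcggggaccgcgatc
The E2f8 window is chr7:48881547-48881846 (minus strand), which holds none of the E2F letters searched and has TTTGAA on its opposite strand from 20 bases before the start.
E2f8: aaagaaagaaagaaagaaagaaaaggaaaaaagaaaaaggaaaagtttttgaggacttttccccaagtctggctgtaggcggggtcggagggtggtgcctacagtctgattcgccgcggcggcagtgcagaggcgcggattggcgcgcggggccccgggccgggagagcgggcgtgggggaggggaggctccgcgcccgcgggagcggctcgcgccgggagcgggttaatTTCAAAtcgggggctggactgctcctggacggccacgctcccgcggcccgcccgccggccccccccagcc
Both starts coincide with the GENCODE gene starts. Across the 8 libraries the pair varied together (Pearson r = 0.989 of log2(CPM + 1), a description over 8 libraries that fall into 4 groups).

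**Figure D2:**
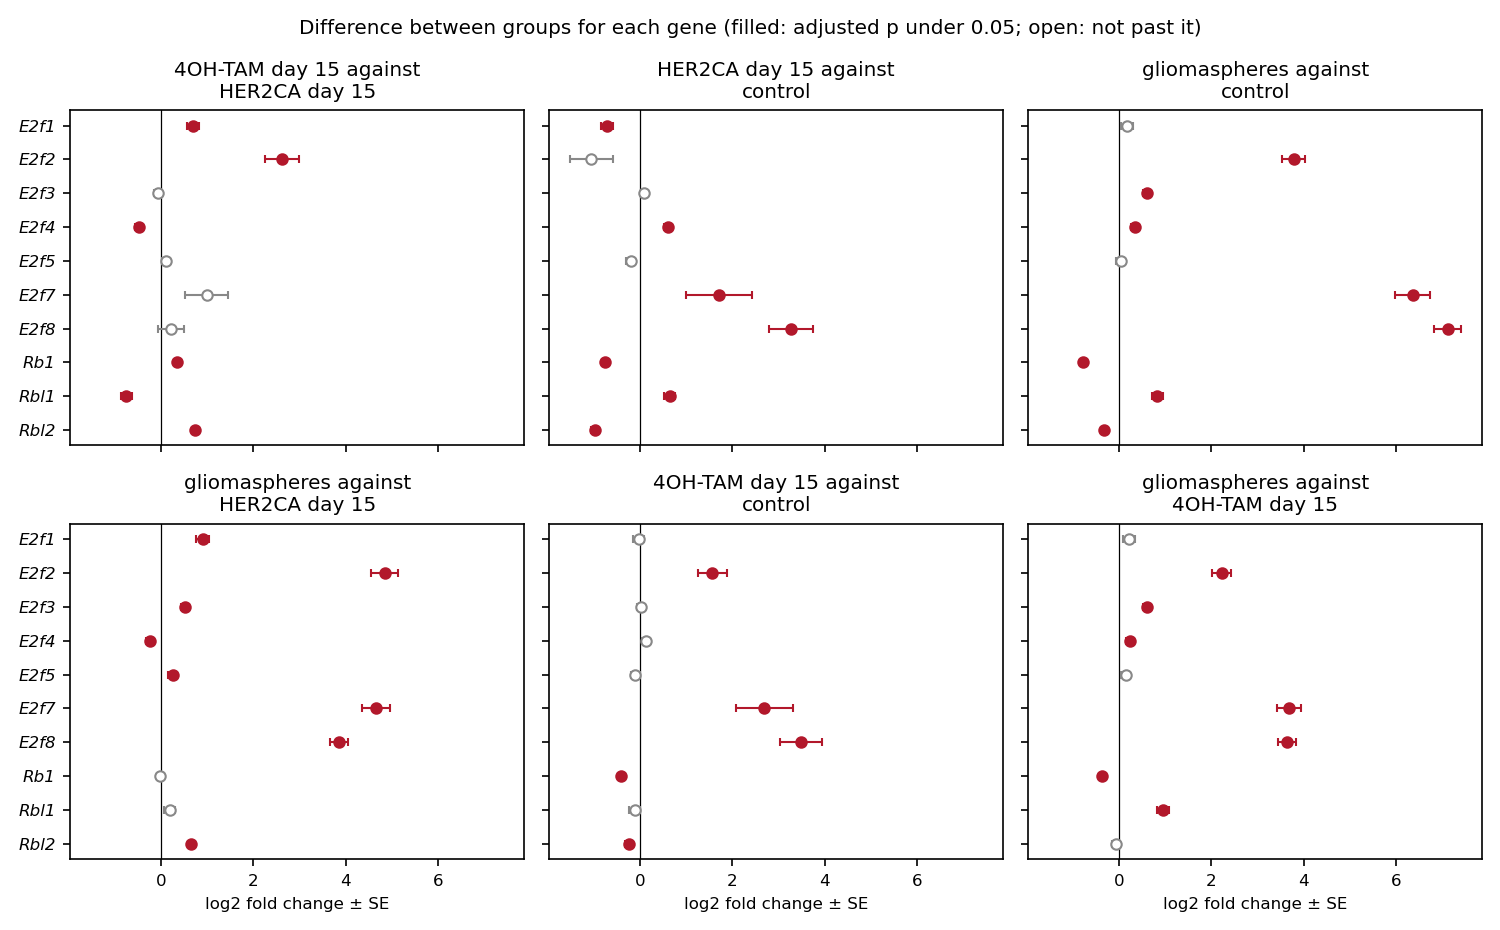
Log2 fold change (horizontal axis, bars ± 1 SE) of each gene in the 6 comparisons, with filled points for adjusted p under 0.05; each panel title names the group on top of the ratio first. E2f2, E2f7 and E2f8 lie far to the right in the 3 gliomasphere panels, with 7.12 for E2f8 against controls, while Rb1 lies left of 0 in all 3 panels against controls; E2f4 in gliomaspheres against the 4OH-TAM-labelled libraries and E2f5 in gliomaspheres against HER2CA day 15 changed side with no scaling factors.

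Of the 3 pocket protein genes, Rb1 and Rbl2 passed as lower than controls in every other group, and Rbl1 in no group. Rb1 (chromosome 14, 73183673 to 73325822) was at 123 and 138 CPM in gliomaspheres, 174 and 163.5 CPM in the 4OH-TAM-labelled libraries, 137 and 128 CPM in HER2CA day 15 and 227 and 222 CPM in control astrocytes. Controls were above every other library, the 4OH-TAM-labelled libraries came next, and gliomaspheres overlapped HER2CA day 15. Against controls Rb1 fell by 0.78 on the log2 scale in gliomaspheres (SE 0.0754, adjusted p = 3.47e-07), by 0.41 in the 4OH-TAM-labelled libraries (SE 0.0736, adjusted p = 0.000223) and by 0.76 in HER2CA day 15 (SE 0.0742, adjusted p = 2.11e-07). It was lower in gliomaspheres than in the 4OH-TAM-labelled libraries (−0.37, SE 0.0754, adjusted p = 0.000603) and higher in the 4OH-TAM-labelled libraries than in HER2CA day 15 (0.35, SE 0.0742, adjusted p = 0.000542). Gliomaspheres against HER2CA day 15 did not pass (−0.025, SE 0.0757, adjusted p = 0.774). Lpar6, on the opposite strand, overlaps 6.78% of the exon bases of Rb1, and Rcbtb2 overlaps 8.11%.

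Rbl2 (chromosome 8, 91070057 to 91123844), which encodes p130, dropped most in HER2CA day 15. It was at 77.95 and 83.9 CPM in gliomaspheres, 85.0 and 85.5 CPM in the 4OH-TAM-labelled libraries, 52.1 and 50.3 CPM in HER2CA day 15 and 104 and 99.0 CPM in control astrocytes. The groups did not overlap, with controls highest and HER2CA day 15 lowest. HER2CA day 15 was lower than controls (log2 fold change −0.99, SE 0.0719, adjusted p = 7.77e-09). Rbl2 was higher than in HER2CA day 15 by 0.66 in gliomaspheres (SE 0.0739, adjusted p = 8.4e-07) and by 0.74 in the 4OH-TAM-labelled libraries (SE 0.072, adjusted p = 1.83e-07). Both stayed below controls, with a log2 fold change of −0.33 in gliomaspheres (SE 0.072, adjusted p = 0.000934) and of −0.25 in the 4OH-TAM-labelled libraries (SE 0.07, adjusted p = 0.00658), which lost its call without control A (0.0502) and with no scaling factors (0.784). Unscaled, the calls of gliomaspheres against controls (0.0638) and against HER2CA day 15 (0.278) were lost too. Gliomaspheres and the 4OH-TAM-labelled libraries were not told apart (−0.08, adjusted p = 0.35). Opposite-strand exons of Aktip cover 9.17% of those of Rbl2, and exons of Gm45464 cover 11.8%.

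Rbl1 (chromosome 2, 157145893 to 157204534), which encodes p107 and is itself a known E2F target, ran against Rbl2 in HER2CA day 15. It was at 25.4 and 22.05 CPM in gliomaspheres, 12.8 and 12.1 CPM in the 4OH-TAM-labelled libraries, 22.3 and 20.0 CPM in HER2CA day 15 and 14.9 and 12.15 CPM in control astrocytes. The libraries fell into a high pair of groups, gliomaspheres and HER2CA day 15, and a low pair, the 4OH-TAM-labelled libraries and controls, and the groups within each pair overlapped. Against controls Rbl1 was higher in gliomaspheres by 0.82 (SE 0.123, adjusted p = 3.21e-05) and in HER2CA day 15 by 0.64 (SE 0.119, adjusted p = 0.00017). Gliomaspheres were above the 4OH-TAM-labelled libraries by 0.95 (SE 0.123, adjusted p = 9.88e-06), and the 4OH-TAM-labelled libraries were below HER2CA day 15 (−0.76, SE 0.12, adjusted p = 3.05e-05). The comparison within the high pair gave 0.18 and did not pass (SE 0.118, adjusted p = 0.166), though it did with upper-quartile factors (0.0313) and without gliomaspheres B (0.034). Within the low pair the value was −0.12 (SE 0.124, adjusted p = 0.42). Its window is chr2:157204485-157204784 (minus strand), with TTTCGCGC from 18 bases before the start.
Rbl1: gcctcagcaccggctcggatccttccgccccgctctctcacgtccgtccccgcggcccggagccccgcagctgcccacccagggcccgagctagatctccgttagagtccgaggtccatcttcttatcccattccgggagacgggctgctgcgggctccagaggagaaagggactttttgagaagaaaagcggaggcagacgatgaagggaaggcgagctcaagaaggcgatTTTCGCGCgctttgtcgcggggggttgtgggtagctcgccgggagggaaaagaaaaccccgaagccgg

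Counted over the family, 8 of the 10 genes passed in gliomaspheres against controls, 6 higher and 2 lower, where 64.5% of all 13607 genes passed (32.5% higher, 32.0% lower). Gliomaspheres against HER2CA day 15 gave 8, with 7 higher and 1 lower, where 78.8% of all genes passed (38.4% higher, 40.4% lower). Gliomaspheres against the 4OH-TAM-labelled libraries gave 7, with 6 higher and 1 lower, where 61.0% of all genes passed (31.3% higher, 29.7% lower). The 4OH-TAM-labelled libraries gave 6 against HER2CA day 15, 4 higher and 2 lower, where 80.5% of all genes passed (40.8% higher, 39.7% lower). Against controls they gave 5, 3 higher and 2 lower, where 59.2% of all genes passed (31.0% higher, 28.2% lower). HER2CA day 15 against controls gave 7, 4 higher and 3 lower, where 75.8% of all genes passed (37.3% higher, 38.4% lower). The number of genes called is near the share over all genes and is no result about the family. Without gliomaspheres B its 3 counts were 8 against controls, 9 against HER2CA day 15 and 6 against the 4OH-TAM-labelled libraries. With upper-quartile factors the split was 3 higher and 5 lower for HER2CA day 15 against controls, and 8 higher and 0 lower for gliomaspheres against HER2CA day 15. With no scaling factors it was 3 higher and 0 lower for the 4OH-TAM-labelled libraries against HER2CA day 15 and against controls, 1 higher and 3 lower for HER2CA day 15 against controls, 3 higher and 0 lower for gliomaspheres against HER2CA day 15, and 3 higher and 1 lower for gliomaspheres against controls and against the 4OH-TAM-labelled libraries. Of the 41 calls, 21 remained with no scaling factors: 5 of E2f8, 5 of E2f2, 4 of E2f7, 3 of Rb1, 2 of E2f1 and 2 of Rbl2. None of the calls of E2f3, E2f4, E2f5 and Rbl1 passed under that setting.

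Levels per kilobase of exon allow genes to be set beside each other within a library. Of the chosen E2F genes in controls, E2f5 (13.8 and 13.4 CPM per kb) and E2f4 (12.7 and 12.3 CPM per kb) were the highest. E2f7 and E2f8 were the lowest, at or under 0.0212 CPM per kb. E2f6 averaged 41.7 CPM in controls, but its level per kb was not computed, and the shares below leave it out. Of the summed E2F level per kb, E2f4 made up 31.2% and 32.8% in gliomaspheres, 34.0% and 37.7% in the 4OH-TAM-labelled libraries, 46.0% and 47.5% in HER2CA day 15 and 33.0% and 33.6% in controls. E2f8 made up 5.29% and 5.50% in gliomaspheres, 0.439% and 0.690% in the 4OH-TAM-labelled libraries, 0.460% and 0.449% in HER2CA day 15 and 0.0550% and 0.0414% in controls. The activator E2f1 held 11.2% and 13.1% in gliomaspheres, 14.9% and 12.5% in the 4OH-TAM-labelled libraries, 8.12% and 7.78% in HER2CA day 15 and 14.5% and 13.9% in controls. HER2CA day 15 therefore had the largest share of E2f4 and the smallest of E2f1, with no overlap with the other libraries in either.

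Ratios within a library do not depend on scaling. The ratio of E2f1 to E2f4 per kb was 0.359 and 0.400 in gliomaspheres, 0.438 and 0.330 in the 4OH-TAM-labelled libraries, 0.177 and 0.164 in HER2CA day 15 and 0.440 and 0.414 in controls. The ratio of Rbl1 to Rbl2 was 0.411 and 0.332 in gliomaspheres, 0.190 and 0.179 in the 4OH-TAM-labelled libraries, 0.540 and 0.502 in HER2CA day 15 and 0.181 and 0.155 in controls. The ratio of p107 to p130 transcripts was thus highest in HER2CA day 15 and next in gliomaspheres, with no overlap with the other 2 groups. Per kb, p130 transcripts still exceeded p107 transcripts in every library. Rb1 exceeded Rbl2 in every library, 1.99 and 2.07 times in gliomaspheres, 2.57 and 2.40 times in the 4OH-TAM-labelled libraries, 3.30 and 3.21 times in HER2CA day 15 and 2.75 and 2.81 times in controls. With 2 libraries a group, an exact two-sided permutation test of such a ratio cannot go below 0.333, so none was run.

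**Figure D3:**
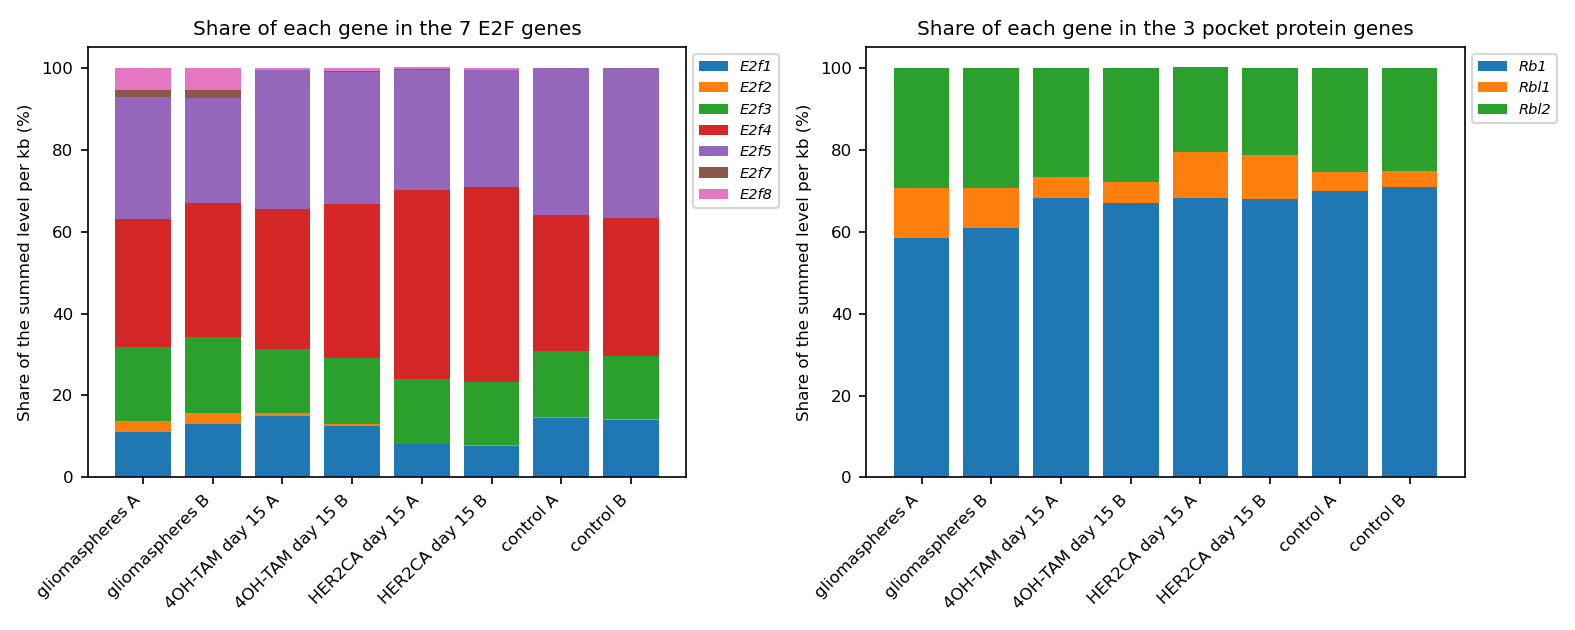
Share of each gene (%) in the summed level per kb of the 7 E2F genes (left) and of the 3 pocket protein genes (right) in each library, with gliomaspheres first and controls last. E2f8 is visible only in gliomaspheres, at 5.29% and 5.50%, the E2f4 band is widest in HER2CA day 15, at 46.0% and 47.5%, and the Rbl1 band is wide in gliomaspheres and HER2CA day 15 and narrow elsewhere.

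Partners of these factors moved unevenly. Of 12 E2F and MuvB partners, 6 (50%) were higher and 2 (16.7%) lower in gliomaspheres than in controls. Of all genes 32.5% were higher and 32.0% lower there. The median log2 fold change was 0.19, against −0.01 over all genes. In HER2CA day 15, 7 (58.3%) were higher and 2 (16.7%) lower than in controls (0.34, against −0.02). Of all genes 37.3% were higher and 38.4% lower in that comparison. In the 4OH-TAM-labelled libraries 2 (16.7%) were higher and 10 (83.3%) lower than in HER2CA day 15 (−0.47, against 0.01). Of all genes 40.8% were higher and 39.7% lower there. Against controls these libraries had 4 (33.3%) higher and 4 (33.3%) lower (4 and 2 with upper-quartile factors, 2 and 0 unscaled). That is near the 31.0% and 28.2% of all genes and is no result about the partners. With no scaling factors HER2CA day 15 had 4 higher and 0 lower against controls. Gliomaspheres had 4 (33.3%) higher and 3 (25%) lower than HER2CA day 15, against 38.4% and 40.4% of all genes. They had 7 (58.3%) higher and 1 (8.33%) lower than the 4OH-TAM-labelled libraries, against 31.3% and 29.7% of all genes. Foxm1, the factor that turns on mitotic genes with MuvB, was at 54.9 and 55.5 CPM in gliomaspheres, 5.51 and 6.81 CPM in the 4OH-TAM-labelled libraries, 0.917 and 1.17 CPM in HER2CA day 15 and 1.92 and 1.81 CPM in control astrocytes. Its order was that of E2f2, with HER2CA day 15 below controls (−0.81, SE 0.236, adjusted p = 0.00575) and the 4OH-TAM-labelled libraries above them (1.72, SE 0.171, adjusted p = 8.22e-07). Mybl2, which encodes B-MYB and is a classical E2F target, was at 10.7 and 10.9 CPM in gliomaspheres, 1.38 and 1.84 CPM in the 4OH-TAM-labelled libraries, 2.98 and 3.35 CPM in HER2CA day 15 and 0.691 and 0.535 CPM in control astrocytes. Unlike Foxm1, it was higher in HER2CA day 15 than in controls (2.36, SE 0.249, adjusted p = 5.05e-07) and lower in the 4OH-TAM-labelled libraries than in HER2CA day 15 (−0.98, SE 0.204, adjusted p = 0.000416). The genes of the DP partners differed from each other. Tfdp1 (DP1) was at 139.5 and 128.5 CPM in gliomaspheres, 79.96 and 87.2 CPM in the 4OH-TAM-labelled libraries, 120 and 124 CPM in HER2CA day 15 and 71.6 and 74.6 CPM in control astrocytes, while Tfdp2 (DP2) was lowest in HER2CA day 15, at 47.3 and 43.3 CPM there against 69.3 and 67.0 CPM in control astrocytes (−0.59, SE 0.078, adjusted p = 5.6e-06). Lin52, the MuvB subunit that p130 and p107 bind, was highest in HER2CA day 15, at 36.5 and 37.7 CPM against 18.35 and 18.7 CPM in control astrocytes (1.00, SE 0.0875, adjusted p = 6.04e-08).

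Upstream of the pocket proteins stand the G1 cyclins, their kinases and the kinase inhibitors, 18 genes here. In gliomaspheres 9 (50%) were higher and 5 (27.8%) lower than in controls, against 32.5% and 32.0% of all genes, and 13 (72.2%) higher and 2 (11.1%) lower than in HER2CA day 15, against 38.4% and 40.4%. In HER2CA day 15, 1 (5.56%) was higher and 10 (55.6%) were lower than in controls (median −0.41), against 37.3% and 38.4% of all genes. In the 4OH-TAM-labelled libraries 2 (11.1%) were higher and 12 (66.7%) lower than in controls (median −0.41; 2 and 2 with no scaling factors), against 31.0% and 28.2%. Ccnd1 (cyclin D1) was at 1909 and 1842 CPM in gliomaspheres, 1190 and 1188 CPM in the 4OH-TAM-labelled libraries, 156 and 145 CPM in HER2CA day 15 and 498 and 487 CPM in control astrocytes, with no overlap between any groups. Ccne2 (cyclin E2), an E2F target that drives CDK2, was at 19.8 and 16.8 CPM in gliomaspheres, 2.03 and 2.37 CPM in the 4OH-TAM-labelled libraries, 4.22 and 3.14 CPM in HER2CA day 15 and 4.07 and 3.17 CPM in control astrocytes. It was higher in gliomaspheres than in the 4OH-TAM-labelled libraries by 3.07 (SE 0.184, adjusted p = 2.28e-09), and lower in the 4OH-TAM-labelled libraries than in HER2CA day 15 (−0.72, SE 0.213, adjusted p = 0.006). Cdkn1a, which encodes the inhibitor p21, was at 489 and 516 CPM in gliomaspheres, 600 and 522 CPM in the 4OH-TAM-labelled libraries, 1331 and 1415 CPM in HER2CA day 15 and 1434 and 1374 CPM in control astrocytes. Gliomaspheres and the 4OH-TAM-labelled libraries lay below the other libraries, with log2 fold changes against controls of −1.48 in gliomaspheres (SE 0.085, adjusted p = 1.05e-09) and −1.32 in the 4OH-TAM-labelled libraries (SE 0.0844, adjusted p = 8.15e-09). Cdkn2c, the CDK4 and CDK6 inhibitor p18 and a known E2F target, was at 48.15 and 41.7 CPM in gliomaspheres and between 7.45 and 15.0 CPM in the other 6 libraries.

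Pocket proteins recruit corepressors, of which 9 genes were listed. In gliomaspheres 3 (33.3%) were higher and 1 (11.1%) lower than in controls, against 32.5% and 32.0% of all genes, and 2 (22.2%) higher and 4 (44.4%) lower than in HER2CA day 15, against 38.4% and 40.4%. Set beside the 4OH-TAM-labelled libraries, gliomaspheres had 6 (66.7%) higher and 1 (11.1%) lower, against 31.3% and 29.7% of all genes. None of these last calls remained with no scaling factors. In the 4OH-TAM-labelled libraries 2 (22.2%) were higher and 5 (55.6%) lower than in HER2CA day 15, against 40.8% and 39.7% of all genes (median −0.31; 3 and 4 with upper-quartile factors, 0 and 3 unscaled). With upper-quartile factors gliomaspheres had 3 higher and 2 lower against controls and 3 higher and 3 lower against HER2CA day 15, and with no scaling factors 1 higher and 0 lower against controls. Of the 9, Arid4b, a SIN3 complex subunit, had the lowest log2 fold change between the day 15 groups, at 62.0 and 60.1 CPM in the 4OH-TAM-labelled libraries against 128 and 129.5 CPM in HER2CA day 15 (−1.08, SE 0.0732, adjusted p = 3.09e-09). The demethylase gene Kdm5a, first known as an RB binding protein, was at 91.4 and 103 CPM in the 4OH-TAM-labelled libraries against 163 and 173 CPM in HER2CA day 15 (−0.79, SE 0.0825, adjusted p = 3.73e-07). The deacetylase gene Hdac1 was at 78.8 and 77.9 CPM in gliomaspheres, 54.8 and 59.6 CPM in the 4OH-TAM-labelled libraries, 50.6 and 47.9 CPM in HER2CA day 15 and 28.7 and 31.7 CPM in control astrocytes, and passed as higher than controls in gliomaspheres (1.38), in the 4OH-TAM-labelled libraries (0.92) and in HER2CA day 15 (0.71).

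Targets of E2F in G1/S and of MuvB in G2/M were counted as lists of 45 and 27 genes, all in the table. In gliomaspheres 43 of the 45 G1/S targets were higher than in controls and 0 lower (median log2 fold change 1.74), and all 27 G2/M targets were higher (median 4.58). Against HER2CA day 15 the counts were 40 higher and 1 lower (median 1.64) and 27 higher (median 4.83), and against the 4OH-TAM-labelled libraries 45 higher (median 1.64) and 27 higher (median 3.32). Over all genes the medians of these 3 comparisons were −0.01, −0.03 and 0.02. The shares of all genes that were higher were 32.5%, 38.4% and 31.3%, and the shares lower 32.0%, 40.4% and 29.7%. Some targets of both lists were under 1 CPM outside gliomaspheres. They entered the table through the group where they were high, and their calls are read with that limit. Named by lowest p, Mcm5, a subunit of the replicative helicase, was at 57.9 and 55.8 CPM in gliomaspheres, 7.20 and 8.84 CPM in the 4OH-TAM-labelled libraries, 2.70 and 2.69 CPM in HER2CA day 15 and 1.34 and 1.69 CPM in control astrocytes. Ccna2 (cyclin A2) was at 95.55 and 109 CPM in gliomaspheres, 6.43 and 6.85 CPM in the 4OH-TAM-labelled libraries, 2.38 and 2.14 CPM in HER2CA day 15 and 1.31 and 0.906 CPM in control astrocytes. Both were highest in gliomaspheres and lowest in controls, like E2f8. Rrm2, Uhrf1, Cenpf and Top2a, also among those with the lowest p, were highest in gliomaspheres too but lowest in HER2CA day 15. Their means in HER2CA day 15 were 6.38, 5.31, 1.23 and 6.09 CPM, against 12.5, 8.81, 2.10 and 11.1 CPM in control astrocytes.

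At day 15 the 2 target lists were counted in the same way, and the difference between them was not tested. In HER2CA day 15 against controls, 19 G1/S targets (42.2%) were higher and 13 (28.9%) lower (median 0.18), and 3 G2/M targets (11.1%) were higher and 12 (44.4%) lower (median −0.45), where 37.3% of all genes were higher and 38.4% lower. Mcm2, a helicase subunit, was at 67.4 and 63.7 CPM in HER2CA day 15 against 16.0 and 17.4 CPM in control astrocytes (1.97, SE 0.0916, adjusted p = 5.52e-11). The mitotic spindle gene Nusap1 was at 1.93 and 1.90 CPM against 10.25 and 8.73 CPM (−2.31, SE 0.16, adjusted p = 4.23e-09). Other genes of the same lists went the other way. The G1/S target Dnmt1 was lower than in controls (−1.27, SE 0.0722, adjusted p = 4.73e-10), and the G2/M target Tpx2 was higher (1.49, SE 0.0955, adjusted p = 1.79e-09). In the 4OH-TAM-labelled libraries against HER2CA day 15, 14 G1/S targets (31.1%) were higher and 15 (33.3%) lower (median 0.01), and 25 G2/M targets (92.6%) were higher and 2 (7.41%) lower (median 1.68), where 40.8% of all genes were higher and 39.7% lower. Mcm2 was lower there, at 25.3 and 28.4 CPM in the 4OH-TAM-labelled libraries (−1.29, SE 0.0871, adjusted p = 3e-09), as was the origin recognition gene Orc6, at 23.25 and 22.7 CPM against 64.6 and 71.4 CPM in HER2CA day 15 (−1.57, SE 0.0873, adjusted p = 3.35e-10). Mki67, the proliferation marker Ki-67, was at 13.5 and 16.9 CPM in the 4OH-TAM-labelled libraries against 3.12 and 1.38 CPM in HER2CA day 15 (2.82, SE 0.211, adjusted p = 9.17e-09). Of the G1/S list, Dnmt1 (0.99), Rrm2 (1.27) and Mcm5 (1.57) were higher in that comparison. Of the G2/M list, Tpx2 (−1.33) and Birc5 (−0.43) were lower. Against controls the 4OH-TAM-labelled libraries had 15 G1/S targets (33.3%) higher and 9 (20.0%) lower (median 0.09), and 18 G2/M targets (66.7%) higher and 3 (11.1%) lower (median 1.31), where 31.0% of all genes were higher and 28.2% lower. With no scaling factors the G1/S counts fell to 10 higher and 6 lower for the 4OH-TAM-labelled libraries against HER2CA day 15, to 6 higher and 0 lower for those libraries against controls (G2/M 17 and 0), and to 10 higher and 7 lower for HER2CA day 15 against controls. With upper-quartile factors the G1/S split was 18 higher and 10 lower for the 4OH-TAM-labelled libraries against HER2CA day 15 and 14 higher and 16 lower for HER2CA day 15 against controls.

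**Figure D4:**
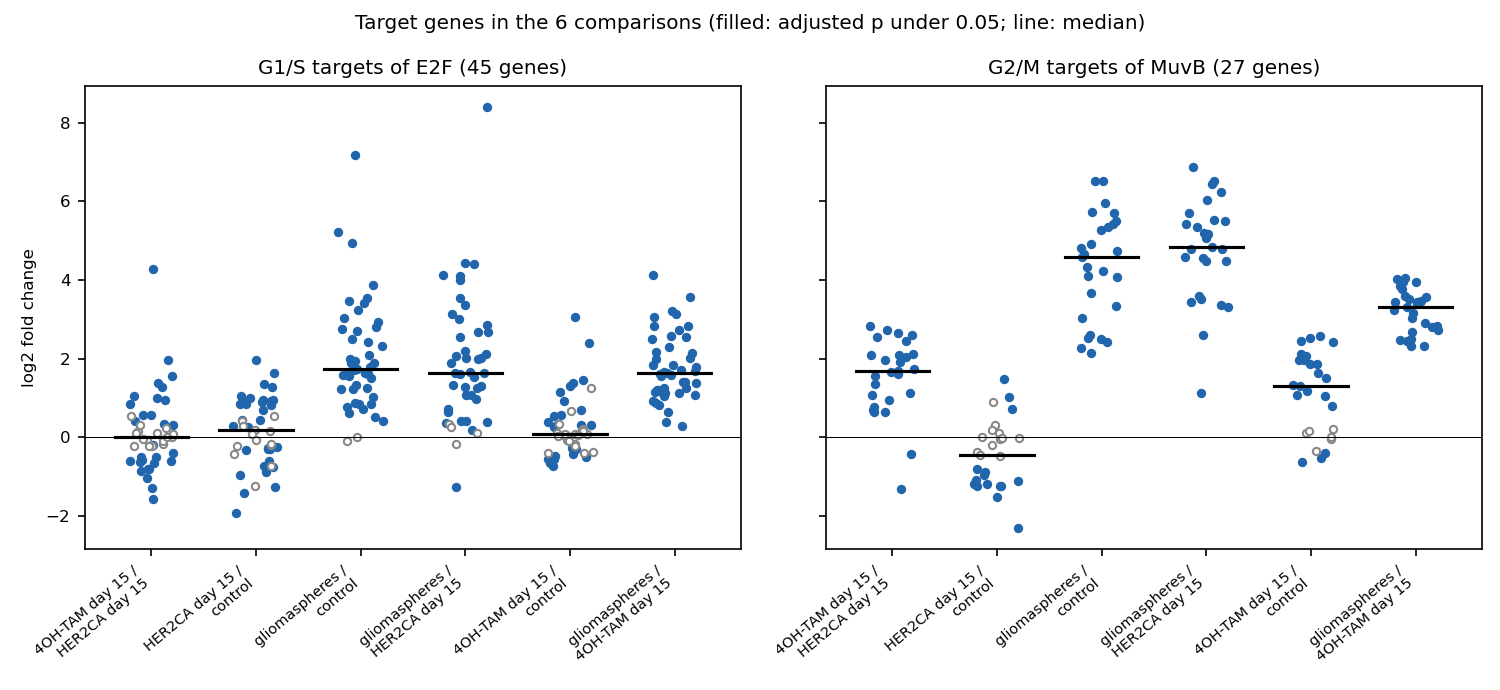
Log2 fold change of each of the 45 G1/S targets (left) and 27 G2/M targets (right) in the 6 comparisons, with filled points for adjusted p under 0.05 and a line at the list's median; a label such as gliomaspheres / control names the group on top of the ratio first. Nearly all points lie above 0 in the 3 gliomasphere columns, and for the 4OH-TAM-labelled libraries against HER2CA day 15 the G2/M median is 1.68 while the G1/S median is 0.01.

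Genes whose pattern was most like that of each factor were looked up by Pearson's r of log2(CPM + 1) over the 8 libraries, among 11125 genes with a mean of at least 5 CPM. The libraries fall into 4 groups, so a high r is easily reached and is given as a description. E2f2 was closest to Cenpf (0.997), Wdr62 and Pbk. E2f7 was closest to Rassf3 (0.998), Lmnb1 and Spire1, and Spire1 was also among the 3 closest to E2f8, after D17H6S56E-5 (0.997) and Thoc6. E2f3 was closest to Mgat4a (0.991), and E2f4 to Ankrd52 (0.989). Rbl1 was closest to Hnrnpab (0.991), Mphosph9 and Cdc7. Rb1 was closest to Armc10 (0.995), Rbl2 to Sybu (0.996), E2f1 to Zfp454 (0.980) and E2f5 to H2afj (0.966). Within the family the most opposed pair was E2f4 and Rbl2 (r = −0.914), followed by E2f4 and Rb1 (r = −0.847).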

How the data were processed

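PolyA RNA of 8 libraries was prepared with a stranded kit and sequenced, per the labels' protocols. The authors deposited 1 table of raw read counts per gene, with gene symbols as row names. FastQC, STAR 2.5.3a, featureCounts and the build mm10 (GRCm38) are named in the submitters' processing notes. Groups came from the sample titles. Differences were tested with edgeR 4.0.16 in R 4.3.3 (TMM factors, filterByExpr, which kept all 13607 genes, glmQLFit and glmQLFTest on 1 mean per group over all 8 libraries), with Benjamini-Hochberg adjustment over all genes and a threshold of 0.05. Each SE is the size of the log2 fold change over the root of its F statistic. CPM used TMM-scaled library sizes, and levels per kb divided CPM by the merged exon length in GENCODE M21. The genes described and the 5 pathway lists were chosen with earlier results of these data known. In the short lists any gene could be named. Of the G1/S and G2/M lists, only genes among the 3 with the lowest p in a direction of a comparison were named. The likeness search kept 3 genes per factor. The 17 other settings were RLE, upper-quartile and no scaling factors, Rn45s and Lars2 left out, a filter of 5 CPM in 2 libraries, no filter, DESeq2 1.42.0, only the 2 groups compared, a replicate block and each library left out; pathway lists were recomputed under the 3 scaling alternatives only. The fit was tested on simulated data. Intervals are exact conditional 95% intervals and cover counting error only, since no molecular identifiers are named in the sources used here.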

Additional observations from a re-analysis of the deposited data

How the results depend on the processing

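The numbers of E2F and pocket protein genes called moved with no scaling factors. That setting gave 3 called genes for the 4OH-TAM-labelled libraries against HER2CA day 15, 4 for HER2CA day 15 against controls, 4 for gliomaspheres against controls, 3 for gliomaspheres against HER2CA day 15, 3 for the 4OH-TAM-labelled libraries against controls and 4 for gliomaspheres against the 4OH-TAM-labelled libraries. Leaving out single libraries gave ranges of 6 to 7, 6 to 8, 8 to 8, 6 to 9, 4 to 5 and 6 to 7 for the same comparisons, in the same order. Of 1013 other values for single genes, 934 kept their direction and their side of the threshold, 38 lost the call, 17 gained it and 24 changed sign. The setting with no filter repeats the main fit, since filterByExpr kept all genes. Its values, here and in the counts of settings above, could not differ. With upper-quartile factors the sign changed for E2f3 in the 4OH-TAM-labelled libraries against HER2CA day 15 (0.13) and in HER2CA day 15 against controls (−0.065), for E2f5 in gliomaspheres against controls (−0.0054), for Rb1 in gliomaspheres against HER2CA day 15 (0.090) and for E2f1 in the 4OH-TAM-labelled libraries against controls (0.013). With no scaling factors it changed for E2f3 in the 4OH-TAM-labelled libraries against HER2CA day 15 (0.041), for E2f1 in gliomaspheres against controls (−0.17) and against the 4OH-TAM-labelled libraries (−0.20) and in the 4OH-TAM-labelled libraries against controls (0.032), for E2f5 in gliomaspheres against controls (−0.28), HER2CA day 15 (−0.020) and the 4OH-TAM-labelled libraries (−0.24), for Rbl1 in gliomaspheres against HER2CA day 15 (−0.081) and for E2f4 in gliomaspheres against the 4OH-TAM-labelled libraries (−0.18). Rb1 in gliomaspheres against HER2CA day 15 was 0.027 with the 5 CPM filter and 0.019 with only the 2 groups compared. Leave-one-out values that crossed 0 ran from −0.13 to 0.49 for E2f8 in the 4OH-TAM-labelled libraries against HER2CA day 15, from −0.065 to 0.10 for E2f5 in gliomaspheres against controls, from −0.071 to 0.062 for Rb1 in gliomaspheres against HER2CA day 15, and, in the 4OH-TAM-labelled libraries against controls, from −0.19 to 0.10 for E2f1, from −0.057 to 0.079 for E2f3 and from −0.26 to 0.029 for Rbl1. The cause of these changes was not tested. E2f2 was not tested under the 5 CPM filter, which removed it, and DESeq2 gave 1 value no adjusted p.

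With no scaling factors 15 counts of the pathway lists moved by more than 1.5 times. In the 4OH-TAM-labelled libraries against HER2CA day 15, 4 partners (12 with TMM), 5 G1 regulators (16), 3 corepressors (7) and 16 G1/S targets (29) were called. In HER2CA day 15 against controls, 4 partners (9) and 17 G1/S targets (32) were called. In gliomaspheres against controls, 3 partners (8) and 1 corepressor (4) were called. In the 4OH-TAM-labelled libraries against controls, 2 partners (8), 4 G1 regulators (14), 1 corepressor (5) and 6 G1/S targets (24) were called. In gliomaspheres against the 4OH-TAM-labelled libraries, 4 partners (8), 7 G1 regulators (13) and 0 corepressors (7) were called. Replicates A and B of different groups share only a letter. The correlation of their deviations ran from −0.024 to 0.084, and a fit with the replicate block made 40 calls of 41 and lost E2f7 in HER2CA day 15 against controls (log2 fold change 1.70, adjusted p = 0.0559). Depth limits E2f7 and E2f8 in controls, where each had 5 counts over both libraries.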
